A study of Mus musculus with 12 samples.

Results

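The genes described here serve the uptake of apoptotic cells by macrophages. They are the TAM receptor tyrosine kinases Tyro3, Axl and Mertk, the TAM ligands Gas6 and Pros1 (protein S), the bridging protein Mfge8, the phosphatidylserine receptors Timd4 and Cd300lf, and the engulfment pair Elmo1 and Dock1. They were chosen by gene symbol, and all 10 symbols matched 1 row each among the 23420 gene rows of the deposited count table. The libraries are bulk RNA-seq of macrophages sorted from bone marrow nucleated cells of C57BL/6 mice. Treatment of the tibias was with MSCs (mesenchymal stromal cells), which support blood formation in the marrow, and the labels call the macrophages from there MSC-educated. The femurs were left untreated and gave the macrophages used for comparison. Both bones came from the same 2 mice, numbered 7 and 19, with 3 libraries per bone and mouse, so there were 6 tibia and 6 femur libraries. The age of the mice, the sort markers and the way the MSCs were given are not stated in the sources used here, and although the title of the study speaks of leukaemia, the labels do not say whether these animals carried leukaemia. Because only tibias were treated and only femurs served as controls, MSC treatment and bone cannot be told apart in any comparison.

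Dying cells display the lipid phosphatidylserine on their surface, and phagocytes recognise it directly or through soluble bridges. Gas6 and protein S hold phosphatidylserine at one end and a TAM receptor at the other, and the activated receptor triggers engulfment and dampens inflammatory signalling. In the marrow, macrophages use this route to clear aged neutrophils and the nuclei that erythroblasts expel. Engulfment itself needs actin remodelling by the GTPase Rac, which the Elmo1 and Dock1 complex activates.

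Total counts ran from 9773455 to 14869150 per library, and 11806 genes passed the filter on low counts, 8 of the 10 uptake genes among them. All 11 macrophage and monocyte markers checked were detected and tested, and 1 of them, Lyz2, was lower in the tibia (log2 change -0.11, edgeR adjusted p = 0.0056). Their summed level in CPM (counts scaled to the effective library size) was 22079 to 22653 in the femur and 20082 to 20778 in the tibia of mouse 7, with no overlap, and 19116 to 19553 against 18736 to 19746 in mouse 19. The largest part of this sum was Lyz2, with means of 14501 CPM in the femur and 13380 CPM in the tibia. Markers of dendritic cells held 0 higher and 2 lower of 10 (Flt3 and Cd209a). Those of eosinophils and mast cells held 0 higher and 3 lower of 10 (Ear1, Ccr3 and Il5ra). Over all tested genes 3.51% were higher and 3.69% lower. Markers of neutrophils and their precursors were abundant in the same libraries. Their sum was 15972 to 17565 CPM in the femur and 16891 to 17950 CPM in the tibia of mouse 7, and 24134 to 27968 against 27367 to 29580 CPM in mouse 19. Of these 12 markers 7 were higher in the tibia, including Elane and Mpo, 1 was lower, Retnlg, and the other 4 did not pass. Markers of mesenchymal stromal cells summed to 63.0 to 73.3 CPM in the femur and 56.9 to 68.4 CPM in the tibia, with 0 of 8 tested markers past the threshold. In such bulk samples, fewer cells of a type and less RNA per cell cannot be told apart. All counts of genes past the threshold used edgeR's quasi-likelihood test with the mouse as a term and a Benjamini-Hochberg adjusted p under 0.05 over all 11806 genes. The 3 libraries of a bone share an animal, and nothing in the labels says that they came from separate sorts, so these p-values measure the spread between libraries. The same test was therefore repeated on counts summed per animal and bone.

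Of the 8 uptake genes tested, 1 rose in the tibia (Mertk) and 1 fell (Dock1), against a background of 7.20% of all tested genes called in either direction (3.51% higher and 3.69% lower). The fold was 2.02 for Mertk and 0.883 for Dock1. Gas6 had a change close to that of Mertk on far fewer reads, near the detection limit, and missed the threshold. Axl, Pros1, Mfge8, Cd300lf and Elmo1 had log2 changes between -0.10 and 0.03 and did not pass. Timd4 and Tyro3 were at or below the detection limit and were not tested.

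**Figure D1:**
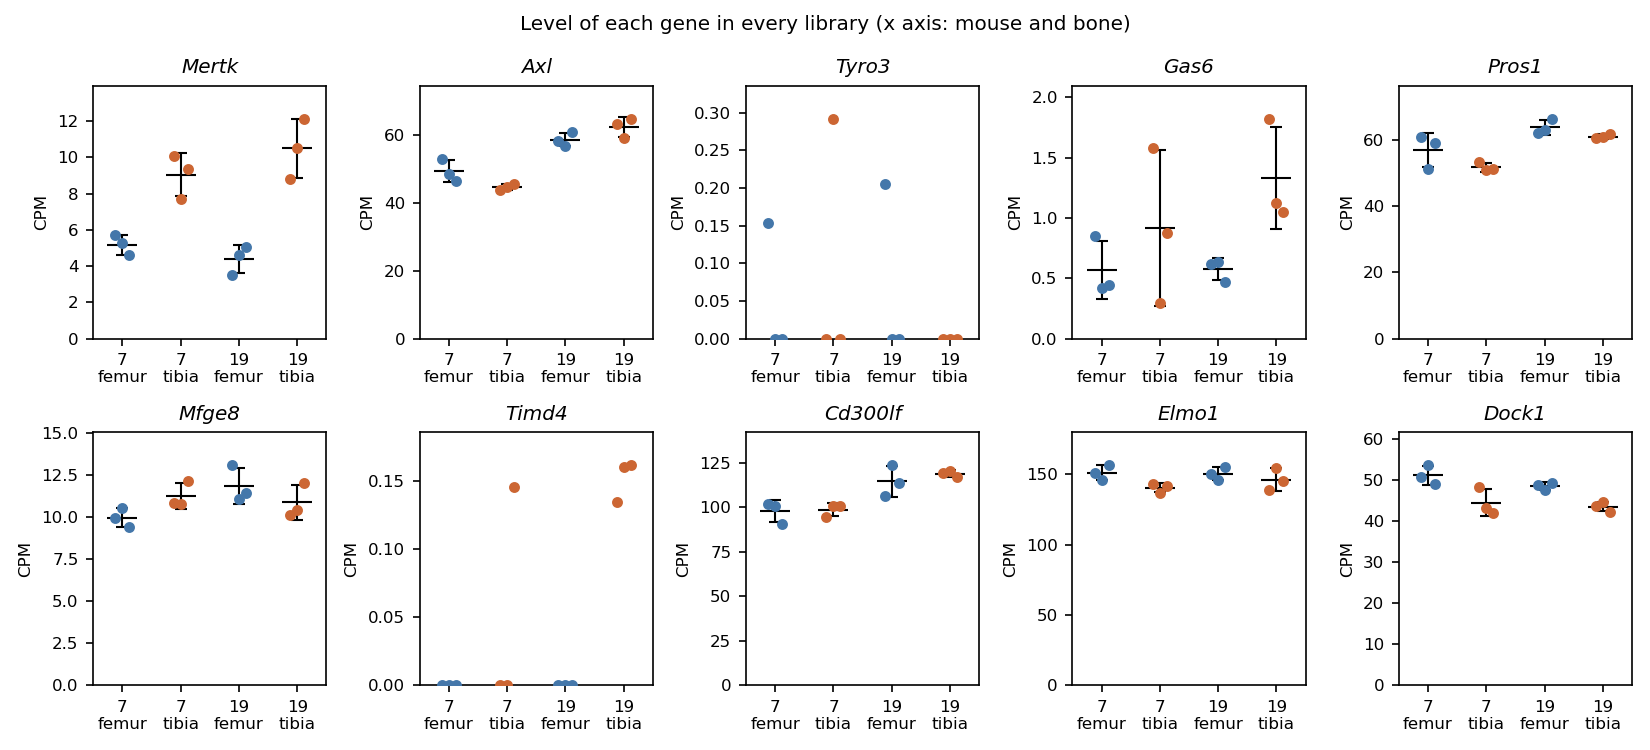
Level of the 10 uptake genes in CPM (y axis, from 0) in each of the 12 libraries, by mouse and bone (x axis; blue, untreated femur; orange, MSC-treated tibia). Bars are the mean ± SD of 3 libraries and are left out for Tyro3 and Timd4, whose counts are 0 to 4 per library; Mertk is the gene whose 6 tibia libraries (7.72 to 12.1 CPM) all lie above its 6 femur libraries (3.498 to 5.69 CPM).

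Mertk encodes the TAM receptor that macrophages use most in clearing apoptotic cells. In the femur it was at 5.69, 5.26 and 4.59 CPM in the 3 libraries of mouse 7 and at 3.498, 4.62 and 5.03 CPM in those of mouse 19. In the tibia it was at 10.05, 7.72 and 9.34 CPM in mouse 7 and at 8.83, 10.5 and 12.1 CPM in mouse 19. The lowest tibia library of either mouse was above the highest femur library of either mouse. Among all tested genes 0.966% had their 6 tibia libraries above every femur library. The share of genes whose bones separate within a mouse, or whose mice separate, was not counted. Such separations are given below as descriptions only.

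Over both mice Mertk rose by 1.01 ± 0.13 on the log2 scale (± SE; edgeR adjusted p = 2.9e-05; higher in 6 of 6 tibia libraries), which placed it 40th of 11806 genes by its change. It rose in each animal, by 0.80 ± 0.18 in mouse 7 (adjusted p = 0.0035, where 9.73% of all genes were called) and by 1.24 ± 0.18 in mouse 19 (3.1e-05, where 5.17% were called). The changes in the 2 mice differed by 0.44 ± 0.26, which did not pass (adjusted p = 0.460; 4.74% of all genes differed between the mice). Its ratio from 773 tibia counts and 367 femur counts was 1.99, with a 95% interval, for counting error alone, from 1.67 to 2.39.

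On counts summed per animal, where 0.551% of all genes were called, Mertk passed as well (1.00, edgeR adjusted p = 0.0163). That call was lost when tibia library 1 (adjusted p = 0.152) or 3 (0.262) or femur library 2 (0.147) of mouse 7, or tibia library 1 (0.141) or 3 (0.067) or femur library 1 (0.0738) of mouse 19 was left out before summing, while the change stayed between 0.94 and 1.06. Over libraries the call was kept without any 1 of the 12. Among the 12 markers of neutrophils and their precursors, 7 were also called higher in the tibia, 1 was lower and the others did not pass. Of all tested genes 3.51% were called higher and 3.69% lower. Their part in the rise of Mertk was not tested.

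The promoter of Mertk is shown because this was the receptor whose transcript rose. Beside it are those of Gas6, whose change was of similar size but did not pass, and Axl, which did not pass either. Each window runs from 250 bases before to 50 bases after the start that the RefSeq promoter table takes for the gene on GRCm38.p6, 5′ to 3′ on the strand of the gene. For Mertk and Gas6 that start is the end of the annotated gene, whereas for Axl it lies inside the gene, downstream of the outermost annotated start. Capitals mark GC boxes (GGGCGG, searched on both strands).
Mertk, chr2:128698665-128698964, plus strand: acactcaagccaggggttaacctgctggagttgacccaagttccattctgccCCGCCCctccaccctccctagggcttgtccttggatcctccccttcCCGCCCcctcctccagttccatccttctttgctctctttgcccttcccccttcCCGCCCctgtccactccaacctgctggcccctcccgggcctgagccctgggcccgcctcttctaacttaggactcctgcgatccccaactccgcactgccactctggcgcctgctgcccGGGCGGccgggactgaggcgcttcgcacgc
Gas6, chr8:13494486-13494785, minus strand: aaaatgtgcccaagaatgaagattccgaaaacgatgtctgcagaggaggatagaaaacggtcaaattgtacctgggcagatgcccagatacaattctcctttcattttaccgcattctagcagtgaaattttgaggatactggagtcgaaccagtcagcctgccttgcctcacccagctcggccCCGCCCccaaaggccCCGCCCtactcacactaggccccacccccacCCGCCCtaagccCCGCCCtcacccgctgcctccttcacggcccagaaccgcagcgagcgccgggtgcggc
Axl, chr7:25788684-25788983, minus strand: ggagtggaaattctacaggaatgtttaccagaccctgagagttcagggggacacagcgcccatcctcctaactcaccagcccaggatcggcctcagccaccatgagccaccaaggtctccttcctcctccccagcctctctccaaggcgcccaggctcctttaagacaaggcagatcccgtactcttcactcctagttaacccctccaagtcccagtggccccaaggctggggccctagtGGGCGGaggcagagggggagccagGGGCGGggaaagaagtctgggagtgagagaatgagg

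The Mertk and Gas6 windows each held 4 GC boxes and the Axl window 2, and 35.7% of the 32851 promoter windows in the RefSeq table held at least 1. Among the other uptake genes, Tyro3 held 6, Pros1 5, Mfge8 4 and Dock1 3. Elmo1 held 3 in 1 window and 0 in another, and Timd4 and Cd300lf held 0. GC content was 66.0% for Mertk, 58.3% for Gas6 and 60.3% for Axl, against a median of 52.7% over all windows. The E-box CACGTG (in 7.15% of all windows), the AP-1 site TGANTCA (7.81%), the MAF half-site TGCTGA (19.5%) and the nuclear receptor half-site AGGTCA (16.3%) had no match in these 3 windows. The GAGGAA core bound by the macrophage factor PU.1 (28.3%) matched once in the Axl window, on the reverse strand, and in neither of the others. No GC box in the 3 windows overlapped another motif. These matches describe the letters of the windows only.

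Axl, the TAM receptor that binds Gas6 but not protein S, had levels that separated the mice and not the bones. Its femur libraries stood at 52.9, 48.5 and 46.5 CPM in mouse 7 and at 58.2, 56.8 and 60.8 CPM in mouse 19. Its tibia libraries stood at 43.8, 44.7 and 45.6 CPM in mouse 7 and at 63.2, 59.0 and 64.7 CPM in mouse 19. All 6 libraries of mouse 19 were above all 6 of mouse 7, a difference between 2 single animals that was not tested.

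Between the bones Axl changed by -0.02 ± 0.05 (edgeR adjusted p = 0.852). In mouse 7 every tibia library was below every femur library (-0.14 ± 0.07, adjusted p = 0.198), and in mouse 19 the bones overlapped (0.09 ± 0.06, 0.530). The difference between the mice of 0.23 ± 0.09 had an unadjusted p of 0.0187 and did not pass over all genes (adjusted p = 0.192).

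Tyro3, the TAM receptor best known from the nervous system, was barely detected. It had 2 counts in 1 femur library of each mouse, 4 counts in 1 tibia library of mouse 7 and 0 in the other 9 libraries. Most fragments appear as 2 counts in this table, so a count of 0 allows up to 3 fragments or 6 counts, which are 0.404 to 0.617 CPM depending on the library. All Tyro3 values were below this limit, and no fold is given.

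The share of Mertk among TAM receptor transcripts is a description with no test. Per kilobase of coding sequence, Mertk made up 8.56 ± 0.41% of the summed TAM receptor level in the femur and 15.3 ± 1.87% in the tibia of mouse 7 (SD, n = 3 libraries). In mouse 19 it made up 6.25 ± 1.01% in the femur and 13.1 ± 1.72% in the tibia. Axl was the main TAM receptor transcript in both bones of both mice. This share is a ratio within each library and does not depend on the scaling between libraries.

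Gas6 encodes the ligand shared by all TAM receptors, and much of it is made by stromal and endothelial cells. Its transcript was scarce, with 11, 6 and 6 counts in the femur of mouse 7, 6, 8 and 6 in the femur of mouse 19, 20, 4 and 12 in the tibia of mouse 7 and 27, 14 and 13 in the tibia of mouse 19. In mouse 19 every tibia library was above every femur library (1.05 to 1.82 against 0.472 to 0.638 CPM). In mouse 7 the bones overlapped, with tibia library 2 (0.292 CPM) below all of its femur libraries. That library was below the limit of 6 counts, and femur libraries of both mice stood at this limit.

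The log2 change of Gas6 over both mice was 0.95 ± 0.37 (edgeR adjusted p = 0.127; higher in 5 of 6 tibia libraries), with 0.67 ± 0.54 in mouse 7 and 1.22 ± 0.52 in mouse 19. The mouse 7 value rested on single libraries, at 0.044 without tibia library 1, 1.10 without tibia library 2 and 1.05 without femur library 1. The change over both mice passed when tibia library 2 of mouse 7 was left out (adjusted p = 0.0448), and it did not pass on sums per animal (0.388). On 90 counts against 43 the ratio was 1.94, with a 95% counting interval of 1.14 to 3.40. Of the 15 stromal markers 8 were tested and 0 passed, with log2 changes from -0.53 for Cxcl12 to 0.30 for Col1a1 (edgeR adjusted p = 0.245 and 0.750). The other stromal markers were too low to test. The collagen genes Col1a2 and Col3a1 had 8 and 2 counts in the femur and 20 and 7 in the tibia. Pdgfra went the other way, with 10 counts in the femur and 1 in the tibia. Lepr had 21 and 23 counts in femur and tibia, Kitl 29 and 35, Alpl 4 and 4, and Bglap 0 and 2. The part of these cells in the Gas6 values was not tested. The endothelial markers summed to 37.6 to 61.0 CPM in the femur and 32.0 to 50.7 CPM in the tibia, and of their 3 tested members 1, Pecam1, was lower. Pecam1 was also the largest part of this sum, with means of 46.2 CPM in the femur and 38.0 CPM in the tibia. Cdh5, Tie1 and Tek had at most 33 counts in all libraries of a bone.

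Pros1 encodes protein S, a vitamin K-dependent plasma protein that binds Mertk and Tyro3 and also acts as an anticoagulant. It was the more abundant ligand, at 51.1 to 60.6 CPM in the femur and 50.8 to 53.3 CPM in the tibia of mouse 7, and at 61.8 to 66.2 against 60.3 to 61.7 CPM in mouse 19. In mouse 19 every tibia library was below every femur library, in mouse 7 the bones overlapped, and each of the 6 tibia libraries was below the femur mean of its own mouse. The log2 change of -0.10 ± 0.05 had an unadjusted p of 0.0395 and did not pass over all genes (edgeR adjusted p = 0.211). Gas6 made up 0.982 ± 0.35% of the summed ligand level per kilobase in the femur and 1.72 ± 1.16% in the tibia of mouse 7, and 0.901 ± 0.17% against 2.14 ± 0.69% in mouse 19 (SD, n = 3 libraries). Megakaryocytes also make protein S, and their markers summed to 7.30 to 13.8 CPM in the femur and 9.42 to 16.5 CPM in the tibia, with 1 of 5 tested members higher, Pf4.

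**Figure D2:**
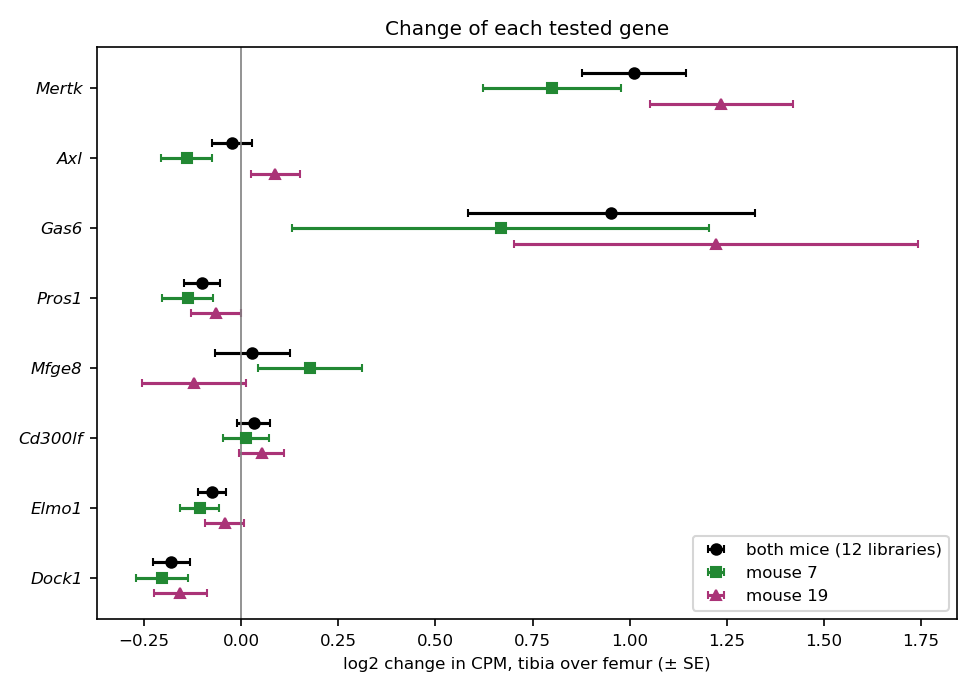
Log2 change of each of the 8 tested uptake genes, tibia over femur (x axis), over both mice (black), in mouse 7 (green) and in mouse 19 (purple); points are fitted changes and bars ± SE. Mertk lies at 1.01 with both mice far from 0, Gas6 has the widest bars, and Dock1 lies at -0.18 with both mice on the lower side.

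Mfge8 is a secreted bridge from phosphatidylserine to the integrins alpha-v beta-3 and alpha-v beta-5. It ran from 9.40 to 10.5 CPM in the femur and from 10.8 to 12.1 CPM in the tibia of mouse 7, so there the tibia libraries lay above the femur libraries. In mouse 19 it ran from 11.1 to 13.1 CPM in the femur and from 10.1 to 12.04 CPM in the tibia, and the bones overlapped. Its log2 change was 0.03 ± 0.10 over both mice (edgeR adjusted p = 0.910), 0.18 ± 0.13 in mouse 7 and -0.12 ± 0.13 in mouse 19. These changes were not shown to differ (adjusted p = 0.5002).

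Among the receptors that bind phosphatidylserine directly, Timd4 marks long-lived resident macrophages and tethers apoptotic cells. It had 0 counts in all 6 femur libraries and in 2 tibia libraries of mouse 7. It had 2 counts, 1 fragment, in each of the other 4 tibia libraries. These values are below the limit of 6 counts, so a difference was not detectable at this depth.

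Cd300lf is a receptor for phosphatidylserine and ceramide with inhibitory motifs in its tail. It was abundant, at 90.8 to 102 CPM in the femur and 94.6 to 101 CPM in the tibia of mouse 7, and at 106 to 123 against 117 to 120 CPM in mouse 19. As for Axl, all 6 libraries of mouse 19 were above all 6 of mouse 7, and the bones of a mouse overlapped. The log2 change between the bones was 0.03 ± 0.04 (edgeR adjusted p = 0.725), and on 8673 against 8017 counts the ratio of 1.03 had a 95% counting interval of 0.985 to 1.07.

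Elmo1 and Dock1 form the exchange factor that activates Rac beneath a bound apoptotic cell. Dock1 was at 50.6, 53.5 and 49.0 CPM in the femur and 48.1, 43.1 and 42.0 CPM in the tibia of mouse 7. In mouse 19 it was at 48.8, 47.4 and 49.1 CPM in the femur and 43.7, 44.5 and 42.2 CPM in the tibia. Within each mouse every tibia library was below every femur library. The share of all genes that separate in this way was not counted.

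Dock1 fell by 0.18 on the log2 scale (SE 0.05, edgeR adjusted p = 0.0228; lower in 6 of 6 tibia libraries), with -0.20 ± 0.07 in mouse 7 (adjusted p = 0.0530) and -0.16 ± 0.07 in mouse 19 (0.223). In mouse 7 alone it passed with halved counts (0.0456) or when tibia library 1 was absent (0.0220). The call over both mice ended when tibia library 2 (adjusted p = 0.0571), tibia library 3 (0.0694) or femur library 2 (0.0636) of mouse 7 was left out, and it was not reached on sums per animal (0.372) or without the mouse as a term (0.111). Elmo1, its regulatory partner, was at 146 to 156 CPM in the femur libraries and 137 to 155 CPM in the tibia libraries. The tibia libraries all lay below the femur libraries in mouse 7 and overlapped them in mouse 19. Its log2 change of -0.08 ± 0.04 did not pass (adjusted p = 0.246; lower in 5 of 6 tibia libraries).

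Levels of different genes were compared per kilobase of coding sequence, as means over the 6 femur libraries with their SD. Cd300lf led with 107 ± 11.4 CPM per kilobase, followed by Elmo1 with 69.2 ± 1.96, Pros1 with 29.8 ± 2.52 and Axl with 20.3 ± 2.12. Dock1 (8.89 ± 0.37) and Mfge8 (7.85 ± 0.93) overlapped and were in reverse order in the tibia (7.85 ± 0.40 and 7.96 ± 0.60 CPM per kilobase). Mertk came next with 1.60 ± 0.25 in the femur and 3.27 ± 0.51 in the tibia, and Gas6 with 0.283 ± 0.08 and 0.556 ± 0.27. Apart from Dock1 and Mfge8, neighbours in this order from Cd300lf to Gas6 did not overlap between libraries of the same bone. Over merged exons in place of coding sequence the order was the same, except that Dock1 stayed above Mfge8 in the tibia as well.

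**Figure D3:**
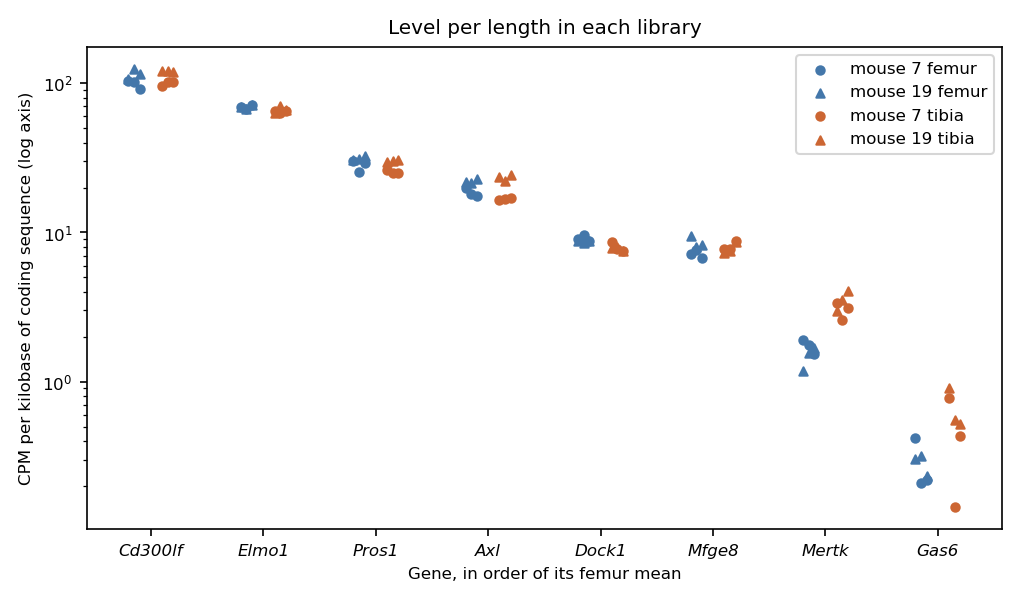
Level of 8 uptake genes in CPM per kilobase of coding sequence (y axis, log scale) in each library, in order of the femur mean (x axis); circles are mouse 7, triangles mouse 19, blue the femur and orange the tibia. Tyro3 and Timd4, with libraries at 0, are not drawn; Mertk is second lowest in both bones, at 1.60 in the femur and 3.27 in the tibia.

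The genes whose pattern over the 12 libraries was most like that of Mertk, among 8507 genes with a mean of at least 10 CPM, were Arg1, which encodes arginase 1 (Pearson r = 0.95, Spearman rho = 0.88), the acute-phase gene Saa3 (0.94, 0.86) and the endocytic adaptor gene Dab2 (0.94, 0.85). All 3 are higher in the tibia, so the libraries of a bone share the level that sets these values. Arg1 had means of 0.215 CPM in the femur and 34.1 CPM in the tibia, and Dab2 of 2.81 and 23.7 CPM. These 2 genes reached a mean of 10 CPM only through the tibia, so their likeness to a gene higher there is no support for a link. The genes most like Axl were Mxd1, a repressor of the Myc network (0.97, 0.95), Fam101b (0.95, 0.87) and Alox5, which encodes 5-lipoxygenase (0.95, 0.91). Their log2 changes between the bones were -0.05, -0.00 and -0.00. These are descriptions over 12 libraries of 2 animals, with no test.

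Other genes of the uptake route were taken from 7 lists. Over the lists 105 of 116 genes were tested, and 14 rose and 11 fell, 23.8% against the 7.20% of all genes. Their median log2 change was -0.01 beside -0.0021 for all genes. The lists were chosen with earlier results of these data known, so the difference between these shares is no test of the route. On sums per animal 5 of the 25 called list genes were called as well, beside 62 of the 850 called over all genes.

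The list of other uptake receptors and opsonins held 6 higher and 1 lower of 21 tested (median 0.07). Stab1, which encodes the phosphatidylserine receptor stabilin-1, rose from 19.1 ± 10.1 to 45.6 ± 8.85 CPM (mean ± SD, n = 6 libraries; log2 1.33 ± 0.12, edgeR adjusted p = 5.2e-08). Thbs1, whose product thrombospondin-1 bridges apoptotic cells to Cd36, rose from 206 ± 105 to 368 ± 68.8 CPM (0.96 ± 0.13, 5.8e-05). The integrin subunit gene Itgb5 rose from 79.4 ± 17.4 to 115 ± 3.36 CPM (0.56 ± 0.07, 1.3e-05). Its counterpart Itgb3 fell from 49.5 ± 12.8 to 36.2 ± 10.4 CPM (-0.46 ± 0.05, 3.5e-06).

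These 4 genes moved the same way in 6 of 6 tibia libraries and passed on sums (adjusted p from 0.0031 to 0.0387). Without the mouse as a term Stab1 (0.0526), Thbs1 (0.219) and Itgb3 (0.364) did not pass. Itgb3 and Itgb5 encode the partners of the alpha-v chain in the receptors that read Mfge8. The other 3 that rose, named after their values were seen, were Havcr2 (0.44), Msr1 (0.29) and C1qb (0.20), with adjusted p of 0.212, 0.242 and 0.300 on sums. C1qb did not pass when tibia library 1 (0.0541) or femur library 2 (0.0569) of mouse 19 was absent.

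Engulfment signalling genes other than Elmo1 and Dock1 held 0 higher and 4 lower of 23 tested (median -0.07), and 0 of the 4 were called on sums. Among the 4, the largest changes were in Trio, an exchange factor for Rac and RhoG (-0.19 ± 0.04, edgeR adjusted p = 0.0026), Dock2, the haematopoietic relative of Dock1 (-0.15 ± 0.03, 0.0024), and Elmo2 (-0.11 ± 0.03, 0.0167). Each was lower in 6 of 6 tibia libraries. Elmo2 did not pass when tibia library 3 of mouse 7 was absent (0.0521), and Plcg2, the other gene of the 4, lost its call without any 1 of 8 libraries (0.0514 to 0.0734).

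The vitamin K cycle genes, which carboxylate Gas6 and protein S, and the proteases that shed TAM receptors held 0 called of 8 tested. Phagosome digestion held 0 higher and 2 lower of 20. These were Rubcn, which directs LC3-associated phagocytosis (-0.19 ± 0.05, edgeR adjusted p = 0.0160, lost without tibia library 2 of mouse 19 at 0.0522), and the NADPH oxidase gene Cybb (-0.12 ± 0.03, 0.0136). Neither passed on sums (0.345 and 0.494) or without the mouse as a term (0.101 and 0.172).

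Sterol export and nuclear receptor genes, which handle the cholesterol of engulfed cells, held 5 higher and 3 lower of 15 (median -0.06). Named after their values were seen, 4 of those that rose were Tgm2 (1.01), the cholesterol exporter gene Abca1 (0.68), Maf (0.58) and Apoe (0.50), and the 3 that fell were Pparg (-0.39), Rxra (-0.24) and Abca7 (-0.12). None of these 7 passed on sums (adjusted p from 0.0732 to 0.484), and the Abca7 call was lost without any 1 of 7 libraries (0.0519 to 0.0812).

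Among 10 find-me receptors 2 rose, the nucleotide receptor genes P2ry12 (0.48 ± 0.09, edgeR adjusted p = 0.0013) and P2ry6 (0.28 ± 0.07, 0.0107). In the list of inhibitory signalling downstream of TAM receptors 1 of 9 rose, Socs3 (0.50 ± 0.11, 0.0047), and 1 fell. P2ry12, P2ry6 and Socs3 did not pass on sums (0.119 to 0.262).

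**Figure D4:**
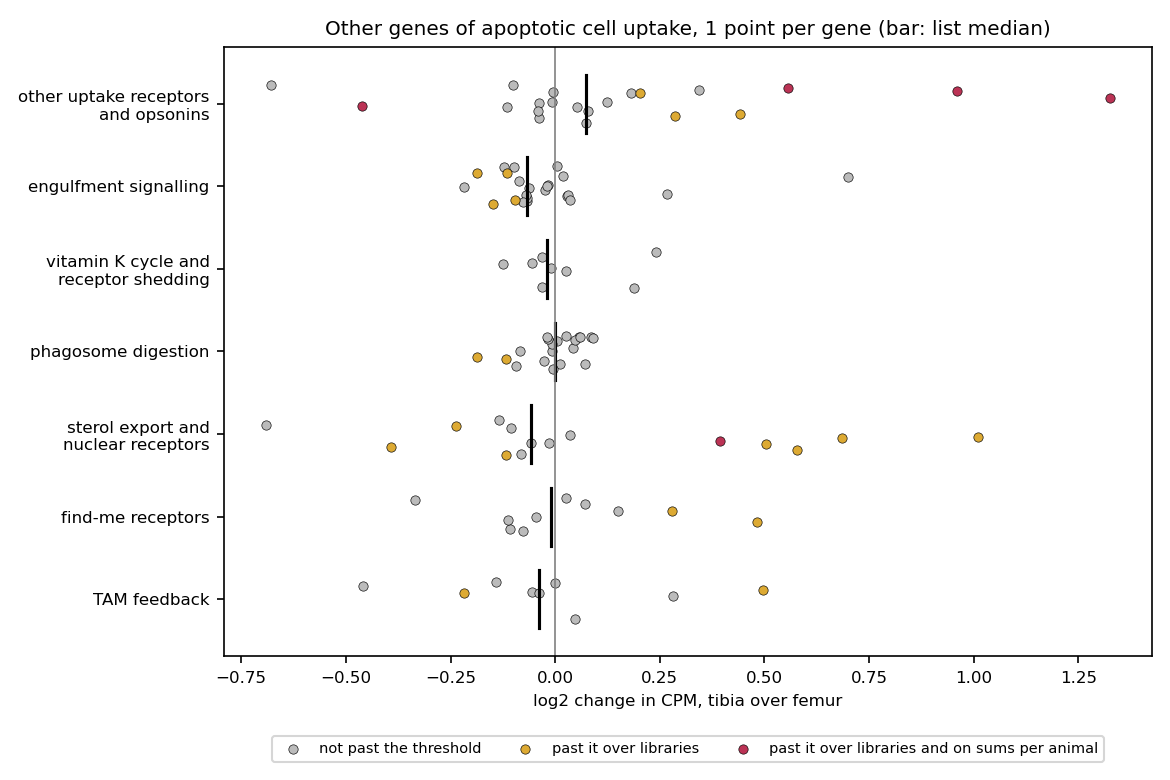
Log2 change, tibia over femur (x axis), of the tested genes of 7 lists of the apoptotic cell uptake route (y axis), 1 point per gene; black bars are list medians, grey genes did not pass the threshold, yellow genes passed over libraries, and red genes passed over libraries and on sums per animal. In the list of other uptake receptors the red genes are Stab1 (1.33), Thbs1 (0.96), Itgb5 (0.56) and Itgb3 (-0.46).

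In the GRCm38.p6 annotation Mertk lies on chromosome 2 from 128698915 to 128803162, Axl on chromosome 7 from 25756500 to 25788924, Gas6 on chromosome 8 from 13465374 to 13494535 and Dock1 on chromosome 7 from 134670687 to 135173647. The table has 1 count per gene and library, with no split by exon. In the GENCODE annotation of the same assembly 1.33% of the exon bases of Gas6 overlap the opposite-strand gene Tmem255b, which had 0 counts, and 3.20% of those of Elmo1 overlap an antisense gene that is not a row of the table. The other 8 genes share no exon bases with another annotated gene.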

How the data were processed

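Macrophages sorted from marrow of 2 mice (MSC-treated tibias, untreated femurs) were sequenced as 12 bulk RNA libraries. The authors deposited 1 table of raw counts per gene, as unscaled whole numbers. The build was mm10, per the submitters' processing notes, which also name bcl2fastq, HISAT2, featureCounts, Subread and DESeq2. For strand setting and annotation, the sources used here give nothing. All 12 columns matched a sample title. In 27 rows the gene name was a date.

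Among counts from 1 to 10, 69.8% were even, so most fragments appear as 2 counts, and intervals and floors use counts divided by 2. They cover counting error only. Libraries of 1 bone and mouse differed beyond sampling noise (on halved counts, a chi-square of 1.37 to 3.14 for each gene) and were kept apart.

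Counts were fitted in R 4.3.3 with edgeR 4.0.16 (TMM scaling, filterByExpr with minimum count 10, quasi-likelihood test, two-sided), with the mouse as a term, with 1 mean per mouse and bone for the changes within mice and their difference, and on sums per animal, which leave 1 residual degree of freedom. Fits were tested on simulated data. SE is the change divided by the square root of F. Shared animals, not library numbers, pair the bones: same-numbered libraries had correlations of deviations from -0.05 to 0.00. DESeq2 1.42.0, other filters and scaling, halved counts and left-out libraries were alternatives.

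The genes and lists were chosen with earlier results of these data known. Besides the 10 genes, list genes called on sums too are named, or else the 3 largest called changes per list, and the 3 genes most like Mertk and Axl by Pearson r of log2 CPM (prior count 2). Tyro3 got no such comparison, having counts in 3 libraries. Some list genes are counted but not reported here by name. Rubcn and Siglecf were found under older symbols.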

Additional observations from a re-analysis of the deposited data

Results flagged for a closer look

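Among the list genes reported here, the change of 11 differed between the mice, by edgeR's test of the difference itself with Benjamini-Hochberg adjustment over all genes. Each value is the log2 change in mouse 19 minus that in mouse 7. It was 1.38 for Tgm2 (adjusted p = 1.5e-08), 1.33 for Abca1 (3.6e-06), 1.01 for Stab1 (8.6e-06), 0.99 for Thbs1 (8.2e-05), 0.90 for Apoe (1.6e-11) and 0.80 for Maf (1.8e-04). It was 0.71 for Socs3 (0.0019), 0.56 for Itgb5 (8.7e-06), 0.53 for P2ry12 (0.0225), 0.45 for Msr1 (2.7e-04) and 0.42 for P2ry6 (0.0095). The rise was larger in mouse 19 for these 11 genes. Stab1, Thbs1, Itgb5 and Tgm2 also passed as higher in mouse 7 alone. The 11 were taken from the 25 list genes called over both mice, of which 12 differed between the mice. This choice leaves out genes that moved in opposite directions. Named after their values were seen, Cd300ld (-0.43 in mouse 7 and 0.66 in mouse 19) and Cd36 (-0.56 and 0.70) also passed the test of the difference (adjusted p = 7.1e-09 and 1.4e-04). Of the 8 tested uptake genes, 0 passed the test of the difference between the mice (the smallest adjusted p was 0.192, for Axl; 1 had an unadjusted p under 0.05). Across all genes 4.74% differed between the mice. With 1 animal on each side, the animal and anything else that differed between these libraries cannot be told apart.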

How the results depend on the processing

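Mertk was called higher under every setting run over libraries and on the full sums per animal, with log2 changes of 0.94 to 1.08. The count of uptake genes called higher was 1 to 2 with 1 library left out, and the count called lower 0 to 1; the latter was 0 without the mouse term, with the replicate block and on sums per animal. For list genes the higher count was 1 without the mouse term and 5 on sums (1 of these 5, Cd14, not called over libraries), and the lower count was 2, 7 and 1 without the mouse term, with the replicate block and on sums. Over all genes 50 were higher and 24 lower without the mouse term, 239 and 256 with the replicate block, and 48 and 17 on sums. With 1 library left out the lower count ran from 278 (tibia library 3 of mouse 7) to 496, and was 282 without tibia library 2 of mouse 19. The replicate block pairs libraries by number; 0 of the 12 libraries correlated best with their own number, and Dock1 stood at an adjusted p of 0.0552 under it. The cause of these shifts was not tested. Changes near 0 turned sign when 1 library was left out, none of them past the threshold. Axl ran from -0.047 to 0.012 (-0.042 to 0.0031 on sums), Mfge8 from -0.015 to 0.080 (-0.0034 to 0.065 on sums), Cd300lf in mouse 7 from -0.039 to 0.041, and its difference between mice from -0.018 to 0.099. Gas6 could not be tested under the stricter filter on low CPM. Depth limits Tyro3, Timd4 and Gas6 most. With no filter, Timd4 had an adjusted p of 0.228 and Tyro3 of 0.975.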
